A study of Homo sapiens with 24 samples.

Results

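The SCAN domain and ZFP genes are for the most part transcription factor genes of the C2H2 zinc finger superfamily. They were taken as the protein-coding RefSeq symbols that begin with ZSCAN, ZKSCAN, SCAND or ZFP and a digit on chromosomes 1 to 22, without the ZFP36 family of RNA-binding proteins, which carry another kind of zinc finger. The rule found 47 of 19866 coding genes: 21 ZSCAN, 7 ZKSCAN, 2 SCAND and 17 ZFP genes. H4K20me3, trimethylated lysine 20 of histone H4, was profiled over them by CUT&RUN, in which an antibody-tethered nuclease cuts out the chromatin that carries a mark. The cells were HN-SCC-151, an HPV-negative squamous carcinoma line of the head and neck labelled as wild type, and every group was harvested after 6 days. Cells given A-196 at 2.5 µM (3 libraries) were set against cells given DMSO (3 libraries). Cells given siRNAs to SUV420H1 (siSUV420H1, 4 libraries) were set against cells given control siRNAs (siNC, 4 libraries). A-196 is an inhibitor of SUV420H1 and of its paralog SUV420H2, while the siRNAs were directed at SUV420H1 alone. One cell line carries all groups, and the design text gives 3 dishes per condition, so libraries of a group of 4 may share a dish, and each p-value speaks of the spread between libraries, which may be technical.

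SCAN domains are protein interaction modules through which these factors pair with each other. ZSCAN proteins join a SCAN domain to DNA-binding zinc fingers, ZKSCAN proteins also carry a KRAB domain that recruits the corepressor KAP1 (TRIM28), and SCAND proteins lack the zinc fingers. ZFP is a mixed group of symbols, many of them KRAB zinc finger genes that lie in clusters. SUV420H1 and SUV420H2 add methyl groups to H4K20, and H4K20me3 is a mark of silent heterochromatin that is also known to lie over clustered zinc finger genes.

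The 300 bp promoters of 5 genes (250 bases before to 50 after the start of the RefSeq transcript, GRCh38.p14) are given because each shows another pattern of peaks: ZSCAN1 and ZSCAN22 with A-196, ZSCAN4 in the inhibitor arm, ZKSCAN7 in the siRNA arm, and ZFP37 in every library. The start of the ZSCAN4 transcript lies inside the annotated span of the gene. Capitals mark CG dinucleotides, counted on the printed strand, a letter pair that 98.1% of 15843 coding promoters hold. The positions are chr19:58033775-58034074 on the plus strand for ZSCAN1, chr19:58326744-58327043 on the plus strand for ZSCAN22, chr19:57668685-57668984 on the plus strand for ZSCAN4, chr3:44554943-44555242 on the plus strand for ZKSCAN7 and chr9:113056675-113056974 on the minus strand for ZFP37.
ZSCAN1 promoter: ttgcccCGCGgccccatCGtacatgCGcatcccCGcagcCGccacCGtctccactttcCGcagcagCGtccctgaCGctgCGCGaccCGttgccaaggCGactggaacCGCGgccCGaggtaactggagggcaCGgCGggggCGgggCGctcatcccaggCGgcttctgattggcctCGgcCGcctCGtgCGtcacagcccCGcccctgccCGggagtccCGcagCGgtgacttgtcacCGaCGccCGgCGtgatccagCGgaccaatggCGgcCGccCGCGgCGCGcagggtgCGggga
ZSCAN22 promoter: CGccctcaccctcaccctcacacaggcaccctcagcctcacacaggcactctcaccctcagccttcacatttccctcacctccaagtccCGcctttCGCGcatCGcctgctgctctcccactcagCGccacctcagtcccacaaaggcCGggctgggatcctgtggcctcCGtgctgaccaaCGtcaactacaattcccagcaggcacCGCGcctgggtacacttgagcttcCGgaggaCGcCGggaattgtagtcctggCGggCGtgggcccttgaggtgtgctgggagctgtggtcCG
ZSCAN4 promoter: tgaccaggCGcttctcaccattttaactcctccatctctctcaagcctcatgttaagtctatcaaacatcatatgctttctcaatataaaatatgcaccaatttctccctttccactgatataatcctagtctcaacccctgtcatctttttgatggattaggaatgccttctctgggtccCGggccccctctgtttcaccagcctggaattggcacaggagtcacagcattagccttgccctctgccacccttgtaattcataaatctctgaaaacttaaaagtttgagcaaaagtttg
ZKSCAN7 promoter: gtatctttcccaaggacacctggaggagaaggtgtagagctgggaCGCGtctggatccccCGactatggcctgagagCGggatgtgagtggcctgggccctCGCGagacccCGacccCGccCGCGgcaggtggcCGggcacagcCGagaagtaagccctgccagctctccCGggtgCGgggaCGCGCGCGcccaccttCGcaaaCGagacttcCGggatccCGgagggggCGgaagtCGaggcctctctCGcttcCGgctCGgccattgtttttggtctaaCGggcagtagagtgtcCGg
ZFP37 promoter: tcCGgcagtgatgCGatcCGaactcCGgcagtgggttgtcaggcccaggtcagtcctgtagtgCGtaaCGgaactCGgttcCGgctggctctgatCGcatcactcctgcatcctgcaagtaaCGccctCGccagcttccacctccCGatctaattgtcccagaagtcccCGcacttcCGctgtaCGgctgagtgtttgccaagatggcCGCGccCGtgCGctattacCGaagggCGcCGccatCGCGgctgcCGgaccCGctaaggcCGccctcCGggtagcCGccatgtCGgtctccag
ZSCAN1 held 42 CG pairs, ZFP37 30, ZKSCAN7 29, ZSCAN22 17 and ZSCAN4 2, beside a median of 22 over all coding promoters with an entry (quartiles 8 and 32). The 39 members with an entry had a median of 25.

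Each deposited list gave the ends of broad peaks in 1 library. A-196 libraries held 8505 to 13464 peaks over 79.6 to 107 Mb, against 8430 to 8921 peaks over 145 to 153 Mb in DMSO libraries. siSUV420H1 libraries held 9325 to 10203 peaks over 118 to 130 Mb, against 13818 to 14675 peaks over 183 to 193 Mb in siNC libraries. A-196 replicate 2 stood apart, with peaks over 3684 coding genes against 2138 and 2308 in the other A-196 libraries. The lists carried no reads or scores, so the depth behind a peak was unknown, and the absence of a peak can mean signal under the caller's threshold. Peaks give no expression. Of 7 squamous genes, 1 was covered in A-196 libraries against 1 to 2 in DMSO libraries, and 1 in siSUV420H1 libraries against 1 to 2 in siNC libraries (TP63 and DSG3). Of 9 genes of other cell types, 0 to 2 were covered in A-196 libraries against 1 in DMSO libraries, and 0 in siSUV420H1 libraries against 1 to 2 in siNC libraries.

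The members were grouped as marked in all libraries, in some or in none, which does not measure the length covered. The window of a gene is its span with 2 kb added on both sides, and 200 bp of it under peaks made the gene marked in that library. Marking in all 14 libraries was seen for 12 of the 47 (25.5%, beside 3.87% of all coding genes and 43.6% of the 505 genes named ZNF). These were ZFP69B, ZFP69, ZKSCAN5, ZFP37, ZSCAN32, ZFP90, ZFP1, ZFP3, ZFP14, ZFP30, ZSCAN4 and ZSCAN18. No peak in any library was found for 15 (31.9%, beside 66.9% of all coding genes and 24.6% of ZNF genes). That set held both SCAND genes, ZFP42 (REX1, a marker of pluripotent stem cells), ZKSCAN3 (a repressor of autophagy genes) and ZFP91 (a ubiquitin ligase of the NF-kB pathway). The others were ZSCAN9, ZSCAN10, ZSCAN16, ZSCAN23, ZSCAN5B, ZSCAN5C, ZKSCAN1, ZKSCAN2, ZKSCAN8 and ZFP41. The span had a median of 26.5 kb in the 12, 25.5 kb in the 20 marked in some libraries and 15.8 kb in the 15 without a peak.

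**Figure D1:**
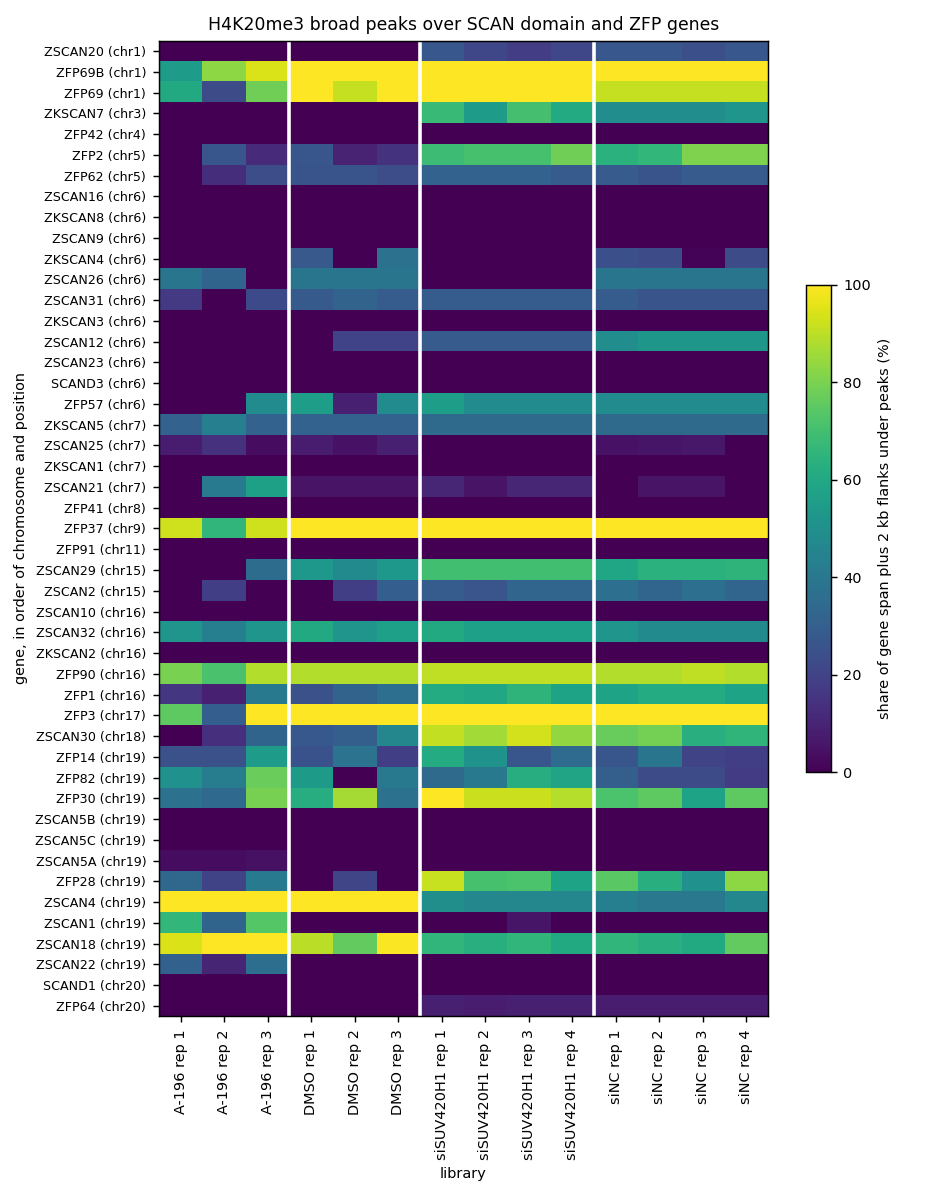
Share of each gene's span plus 2 kb flanks lying under H4K20me3 peaks (colour, in percent) for the 47 genes in chromosome order (rows) and the 14 libraries (columns), with white lines between groups. ZFP69B, ZFP37 and ZFP3 were fully covered in all 11 DMSO, siSUV420H1 and siNC libraries. ZSCAN1, ZSCAN22 and ZSCAN5A had peaks in every A-196 library and in no DMSO library.

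The longest coverage in the controls was that of ZFP90, ZSCAN18, ZSCAN4, ZFP69, ZFP37 and ZFP3 in DMSO and of ZFP90, ZFP1, ZSCAN30, ZFP2, ZSCAN18 and ZFP37 in siNC libraries. ZFP90 (chromosome 16, 68533479 to 68576506) had 37.5, 33.5 and 41.5 kb covered with A-196, against 41.5 kb in each DMSO library. The same gene had 42.5 kb in each siSUV420H1 library, against 41.5, 41.5, 42.5 and 41.5 kb with siNC. ZSCAN18 (chromosome 19, 58083842 to 58118426) had 36.6, 38.6 and 38.6 kb with A-196, against 34.6, 29.4 and 38.4 kb with DMSO. In the siRNA arm ZSCAN18 had 25.4, 24.4, 25.4 and 23.4 kb with siSUV420H1, against 25.4, 24.4, 23.4 and 29.4 kb with siNC. Both genes had peaks in every library, and neither passed the test in either arm. ZSCAN4, whose mouse counterpart acts in the early embryo and at telomeres, was covered over its whole window of 31.7 kb in all 6 libraries of the inhibitor arm. In the siRNA arm it had 15.7, 14.7, 14.7 and 14.7 kb with siSUV420H1, against 13.7, 12.7, 12.7 and 14.7 kb with siNC. The middle of the gene, including the promoter printed above, thus lay outside the peaks of the siRNA arm in both of its groups. The peak over ZSCAN4 was 154 to 302 kb wide with A-196, against 99 to 151 kb with DMSO.

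ZFP3, ZFP1 and ZFP2, each with long coverage in DMSO or siNC libraries, varied most between A-196 libraries. ZFP3 (chromosome 17, 5078467 to 5096374) had 16.5, 6.53 and 21.9 kb with A-196, against its whole window of 21.9 kb in each DMSO library and in each library of the siRNA arm. ZFP1 (chromosome 16, 75119002 to 75172234) had 9, 5 and 23.2 kb with A-196, against 14.2, 18.2 and 21 kb with DMSO. The same gene had 35.2, 34.2, 37.2 and 33.2 kb with siSUV420H1, against 33.2, 35.2, 35.2 and 33.2 kb with siNC. Both groups of the siRNA arm thus lay above both groups of the inhibitor arm for ZFP1, and the treated and control libraries overlapped in each arm. ZFP2 (chromosome 5, 178895913 to 178933212) had 0, 11.1 and 5 kb with A-196, against 11.1, 4.09 and 6.09 kb with DMSO. In the siRNA arm ZFP2 had 28.3, 29.3, 29.3 and 32.3 kb with siSUV420H1, against 26.3, 27.3, 33.3 and 33.3 kb with siNC. None of these 3 genes passed the test in either arm (adjusted p from 0.348 to 1, limma).

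A further set was marked in the siRNA arm alone. ZSCAN20 (chromosome 1, 33472645 to 33501643) had 9, 7, 6 and 7 kb with siSUV420H1, against 9, 9, 8 and 9 kb with siNC. ZKSCAN7 (chromosome 3, 44555193 to 44583483) had 21.8, 17.8, 22.8 and 19.8 kb with siSUV420H1, against 15.8, 15.8, 15.8 and 16.8 kb with siNC. ZFP64 (chromosome 20, 52084011 to 52191779), a regulator of the MLL gene in leukaemia, had 10, 9, 10 and 10 kb with siSUV420H1, against 9 kb in each siNC library. All 3 had no peak in any A-196 or DMSO library. Such a pattern was found in 6.38% of the members, 0.725% of all coding genes and 0.198% of ZNF genes. By the controls alone, the same 3 members were marked in every siNC and no DMSO library. That held for 3.28% of all coding genes and 2.97% of ZNF genes. With 3 members and 1 ZNF gene, nothing is read from these shares. The arms differed in the vehicle or transfection, in the IgG library and in the libraries, and these cannot be told apart for a difference between arms in the controls.

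After A-196, 3 SCAN zinc finger genes near the end of the long arm of chromosome 19 carried peaks that DMSO cells lacked. ZSCAN1 (58034025 to 58056502) had 17.5, 8.5 and 19.5 kb covered with A-196 and 0 kb in each DMSO library. ZSCAN22 (58326994 to 58342332) had 6.01, 2.01 and 7.01 kb with A-196 and 0 kb in each DMSO library. ZSCAN5A (56221303 to 56368278) had 5, 5 and 7 kb with A-196 and 0 kb in each DMSO library. All 3 were called higher by limma's test with Benjamini-Hochberg adjustment over all genes tested. The adjusted p was 0.000991 for ZSCAN1, 0.0143 for ZSCAN22 and 0.00057 for ZSCAN5A. No fold change is given, since the DMSO libraries were at 0. These were 3 of the 29 members tested (10.3%, beside 4.44% of 3831 genes called higher in this comparison). All 3 reached the mean of 1 kb asked of a gene through the A-196 libraries alone. Nothing is therefore read from that share or from the size of these adjusted p. The identical values of 0 kb in the DMSO libraries added no spread to the fit. The other 18 members had a mean under 1 kb over the 6 libraries and were not tested. By limma 0 of the 29 were called lower, against 14% of all genes tested. At an unadjusted p under 0.05 there was 1, ZSCAN29, and by separation of the groups there were 5.

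The 3 calls rested on peaks of different kinds. At ZSCAN1, A-196 replicates 1 and 3 had a peak over the start of the gene (58031001 to 58041000 and 58021001 to 58043000), and all 3 replicates had a peak over its end from 58050001. The start peak covered the CG-rich promoter printed above in 2 of the 3 A-196 libraries and in no other library. At ZSCAN22, peaks came from upstream, ended 0.006 to 5.01 kb inside the gene, and covered its promoter in all 3 A-196 libraries and in no other library. In A-196 replicate 2 the coverage of ZSCAN22 lay almost wholly in the upstream flank, and without the flanks the call ended (adjusted p = 0.195). At ZSCAN5A the peaks (56252001 to 56257000 in replicates 1 and 2, from 56250001 in replicate 3) took up 3.75% of a long window, away from the promoter. They covered 0 kb of EDDM13 and of the 2 unnamed coding loci that lie in the same window. ZSCAN22 also lost its call when any 1 DMSO library was left out (adjusted p 0.0737 to 0.0771).

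**Figure D2:**
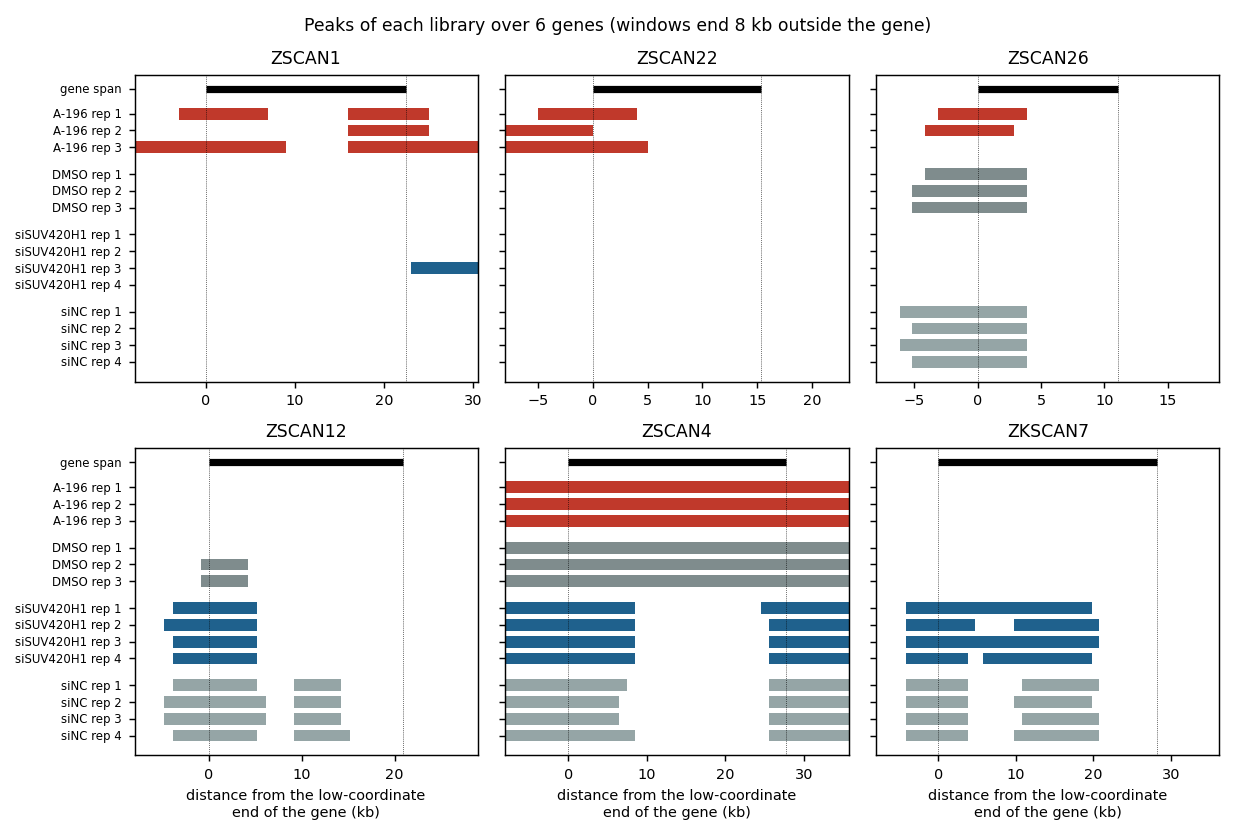
Peaks of each library (bars, 1 row per library) against the distance from the low-coordinate end of the gene in kb for 6 genes, with the gene span in black. ZSCAN1 and ZSCAN22 had peaks in all 3 A-196 libraries and in no DMSO library, ZSCAN26 had none with siSUV420H1, ZSCAN12 lacked its second peak with siSUV420H1, ZSCAN4 was covered throughout in the inhibitor arm, and the gap over ZKSCAN7 was closed in siSUV420H1 replicates 1 and 3.

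No other member was called with A-196. Without scaling, the group mean was lower for 18 of the 29, higher for 10 and equal for 1, with a median difference of -2.67 kb. ZFP69 (chromosome 1, 40477290 to 40496343), linked to lipid metabolism in mice, had 14, 5.34 and 18.1 kb with A-196 and 23.1, 21.1 and 23.1 kb with DMSO (adjusted p = 0.194, limma). Its neighbour ZFP69B had 9.71, 14.7 and 16.7 kb with A-196 and 17.7 kb in each DMSO library (adjusted p = 0.272). ZSCAN29 (chromosome 15, 43358175 to 43371043) had 0, 0 and 6 kb with A-196 and 9, 8 and 9 kb with DMSO (adjusted p = 0.148). In these genes every A-196 library lay below every DMSO library. The same held for ZFP37, with 20.7, 14.7 and 20.7 kb with A-196 and 22.3 kb in each DMSO library (adjusted p = 0.307). It also held for ZSCAN31, with 6, 0 and 8 kb with A-196 and 10, 11.3 and 10.3 kb with DMSO (adjusted p = 0.285). Such a separation downward was found in these 5 members and in 19.3% of all genes with a covered base, and upward in the 3 gained members and in 3.83%. With 3 libraries against 3 the exact two-sided permutation test cannot go below p = 0.1.

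No member met the rule for a loss with A-196. The rule asks for a mark in all control libraries and in no treated one, which 0 of the 21 members with a mark in all DMSO libraries met, beside 18% of such genes over the whole annotation. The reverse, a gain, held for 3 of the 18 members with a mark in all A-196 libraries, beside 14.4%. Which libraries entered decided some of these. Without A-196 replicate 3, ZFP57 and ZSCAN29 counted as lost, without DMSO replicate 1 ZSCAN12, and without DMSO replicate 2 ZKSCAN4. Without DMSO replicate 2, ZFP28 counted as gained. It had 8, 4.86 and 9.81 kb with A-196 and 0, 5 and 0 kb with DMSO. ZFP57, which protects imprints from demethylation in the early embryo, had 0, 0 and 6.15 kb with A-196 and 7.15, 1.15 and 6.15 kb with DMSO. Over the 29 members the median difference on the log2(kb + 1) scale was -0.31, beside -0.02 over all genes tested. Scaled to equal covered length per library, the median of the members was 0.28 and that of all genes 0.60, so the direction of the members as a group depended on the scaling.

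After siSUV420H1, ZSCAN26, ZKSCAN4, ZSCAN12 and ZSCAN25 on chromosomes 6 and 7 fell, while ZFP82, ZFP30, ZSCAN30, ZKSCAN7 and 8 other members rose. Of 29 members tested, 16 were called (56.8% of 3352 genes tested were called in either direction). Of these, 12 were higher (41.4%, against 15.4% of all genes tested) and 4 lower (13.8%, against 41.5%). ZSCAN26, ZKSCAN4 and ZSCAN25 had 0 kb in each siSUV420H1 library. They reached the mean of 1 kb through the siNC libraries alone, so nothing is read from the share of lower members. Of 333 ZNF genes tested, 133 were called higher and 20 lower (39.9% and 6.01%). Without siSUV420H1 replicate 3 the number of members called was 9, and without siNC replicate 1, 2 or 4 it was 10. Scaling to equal covered length gave 24 members higher and 4 lower, and raised every median difference on the log2(kb + 1) scale. That of the members was 0.61 with scaling and 0.05 without, and that of all genes 0.17 with scaling and -0.39 without.

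The falls came first in ZSCAN26 (chromosome 6, 28267143 to 28278204). It had 0 kb in each siSUV420H1 library and 5.86 kb in each siNC library (adjusted p = 3.2e-10, limma). That small p rests on identical values within each group. A single peak of 9 to 10 kb over the low-coordinate end of the gene was present with siNC and absent with siSUV420H1. ZKSCAN4 next to it (28241697 to 28259211) had 0 kb in each siSUV420H1 library and 5.21, 5, 0.211 and 5 kb with siNC (adjusted p = 0.0211). In siNC replicate 3 its own peak was missing and only the edge of the ZSCAN26 peak reached its flank. ZSCAN12 (28378821 to 28399747) had 7.18 kb in each siSUV420H1 library, against 12.2, 13.2, 13.2 and 13.2 kb with siNC (adjusted p = 3.33e-07, limma). For ZSCAN12 too the small p rests in part on identical values, those of the siSUV420H1 libraries. One of its peaks remained and the other, 5 to 6 kb wide in each siNC library, was gone in all 4 siSUV420H1 libraries. ZSCAN25 (chromosome 7, 99616946 to 99738035) had 0 kb in each siSUV420H1 library and 6, 7, 8 and 0 kb with siNC (adjusted p = 0.0358). Its siNC peaks lay within the annotated span between 99679001 and 99687000. In siNC replicates 1, 2 and 3, between 0 and 0.996 kb of them lay over the end of CYP3A5 and 1.32 to 2.32 kb over the read-through locus CYP3A7-CYP3A51P. The call of ZKSCAN4 ended without siNC replicate 1, 2 or 4 (adjusted p 0.057 to 0.0584), and that of ZSCAN25 without siNC replicate 1, 2 or 3 or any siSUV420H1 library (adjusted p 0.0745 to 0.0854). Among peaks of at least 10 kb alone, the calls of ZSCAN26 (adjusted p = 0.179) and ZSCAN12 (adjusted p = 0.558) ended. By the rule for a loss, 2 of 27 members with a mark in all siNC libraries lost it (ZSCAN26 and ZKSCAN4), beside 21.5% of such genes over the whole annotation. A gain was met by 0 of 26 members, beside 3.47%.

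The rises were of several kb in 4 genes and of 2 kb or less in the other 8. ZFP82 (chromosome 19, 36383120 to 36418644) had 13.6, 16, 24.6 and 23 kb with siSUV420H1 and 12, 9, 9 and 7 kb with siNC (adjusted p = 0.0115, limma). ZFP30 (chromosome 19, 37631006 to 37656261), which acts in fat cell formation in mice, had 29.3, 27, 27 and 26 kb with siSUV420H1 and 21, 22, 17 and 22 kb with siNC (adjusted p = 0.00756). ZSCAN30 (chromosome 18, 35251062 to 35290229) had 39.2, 37.2, 40.2 and 36.2 kb with siSUV420H1 and 33.2, 34.2, 27.2 and 28.2 kb with siNC (adjusted p = 0.0186). In all 3 the lowest siSUV420H1 library lay above the highest siNC library. The part of the ZSCAN30 window shared with ZNF397 had 10.2 kb under peaks in siSUV420H1 and siNC libraries alike, so the rise lay outside it. ZKSCAN7, with the values given above, did the same (adjusted p = 0.00913), and the gap between its peaks was closed in siSUV420H1 replicates 1 and 3 and open in every siNC library. On the log2(kb + 1) scale the differences were 0.97 (SE 0.23) for ZFP82, 0.40 (SE 0.0873) for ZFP30, 0.31 (SE 0.0832) for ZSCAN30 and 0.33 (SE 0.075) for ZKSCAN7. The call of ZSCAN30 ended without siSUV420H1 replicate 3 (adjusted p = 0.051) or siNC replicate 4 (adjusted p = 0.0504). Among peaks of at least 10 kb alone, the calls of ZSCAN30 (adjusted p = 0.157) and ZKSCAN7 (adjusted p = 0.0542) ended.

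The other 8 rises amounted to 2 steps or fewer of the 1000 bp grid on which all peak ends lie. ZFP69 had 23.1 kb in each siSUV420H1 library and 21.1 kb in each siNC library (adjusted p = 7.71e-06, limma), a small p that rests on identical values within each group. ZSCAN32 (chromosome 16, 3382085 to 3401004), next to ZNF174, had 13.9, 12.9, 12.9 and 12.9 kb with siSUV420H1 and 11.9, 10.9, 10.9 and 10.9 kb with siNC (adjusted p = 0.00248). ZSCAN29 had 11.8 kb in each siSUV420H1 library and 10, 10.8, 10.8 and 11 kb with siNC (adjusted p = 0.00608). These 3 had groups that did not overlap, as did ZFP82, ZFP30, ZSCAN30 and ZKSCAN7, which makes 7 members (background 10.4% of genes with a covered base), and ZSCAN26, ZSCAN12 and ZKSCAN4 make 3 downward (background 33.6%). The exact two-sided permutation test gives p = 0.0286 for each of the 10, the smallest possible with 4 libraries against 4. ZSCAN21, ZFP64, ZSCAN31, ZSCAN4 and ZFP62 rose by 0.75 to 1.5 kb with adjusted p from 0.0381 to 0.0478, and each of these calls ended when 1 or another library was left out (adjusted p 0.0736 to 0.105). ZSCAN21 owed its value to the edge of a peak over ZNF3, 11 kb wide with siNC and 13 to 15 kb with siSUV420H1.

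**Figure D3:**
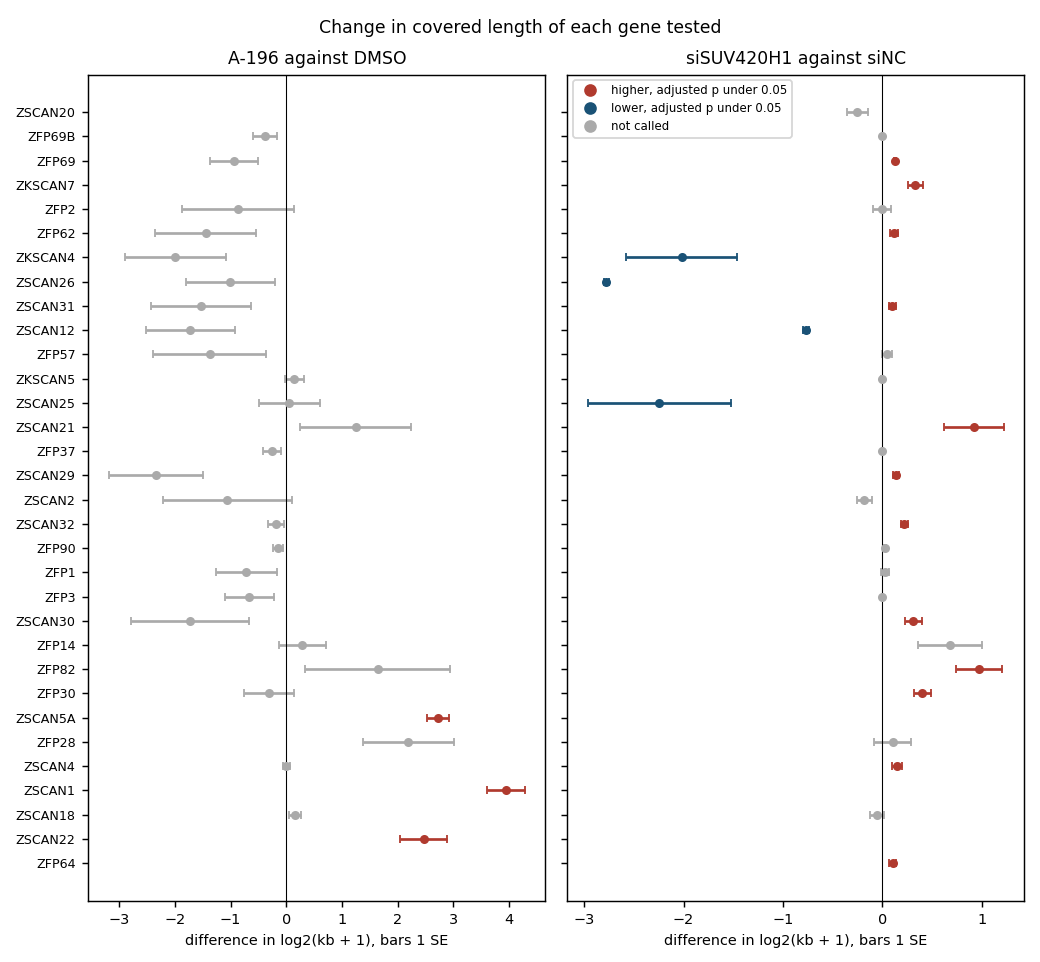
Difference in log2(kb + 1) of every member tested (points, with 1 SE as bars) for A-196 against DMSO and siSUV420H1 against siNC, genes in chromosome order. With A-196, 3 genes are called, all higher; with siSUV420H1, 12 genes are called higher and 4 lower.

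The difference between the arms, tested directly on all 14 libraries as the A-196 effect minus the siSUV420H1 effect, passed for 5 of 32 members. It was higher for ZSCAN1 (adjusted p = 0.000102, limma), ZSCAN22 (adjusted p = 0.000303) and ZSCAN5A (adjusted p = 5.74e-08), beside 14.3% of 3734 genes. ZSCAN22 and ZSCAN5A had 0 kb in each siSUV420H1 library and each siNC library, as in DMSO, and were tested only because the A-196 libraries lifted their mean over 1 kb, so nothing is read from the count of higher members. ZSCAN1 had 0, 0, 1.5 and 0 kb with siSUV420H1, where a peak from 58057001 touched the flank, and 0 kb in each siNC library. The difference was lower for ZSCAN29 (adjusted p = 0.0299) and ZSCAN32 (adjusted p = 0.0214), beside 13.4% of genes. ZSCAN32 had 11.9, 9.92 and 11.9 kb with A-196, against 13.9, 11.9 and 12.9 kb with DMSO, and the values of ZSCAN29 are given above. With siSUV420H1 these genes rose by 1.16 kb (ZSCAN29) and 2 kb (ZSCAN32) only. The call of ZSCAN29 ended when any library but A-196 replicate 3 or siNC replicate 4 was left out (adjusted p 0.0502 to 0.0636), and that of ZSCAN32 without DMSO replicate 1 (adjusted p = 0.0548) and after scaling (adjusted p = 0.176). Among peaks of at least 10 kb alone, the calls of ZSCAN1 (adjusted p = 0.15) and ZSCAN32 (adjusted p = 0.0939) ended. Of the 5 members, 3 were tested without A-196 replicate 1, 4 without replicate 2 and 3 without replicate 3. Without A-196 replicate 3 the members that differed numbered 15, of which 12 were lower. For the genes lost with siSUV420H1 the arms were not shown to differ: ZSCAN26 had 5.86, 4.86 and 0 kb with A-196 and 5.86 kb in each DMSO library (adjusted p of the difference 0.0818). ZKSCAN4 had 0 kb in each A-196 library and 6, 0 and 8 kb with DMSO (adjusted p of the difference 0.997).

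**Figure D4:**
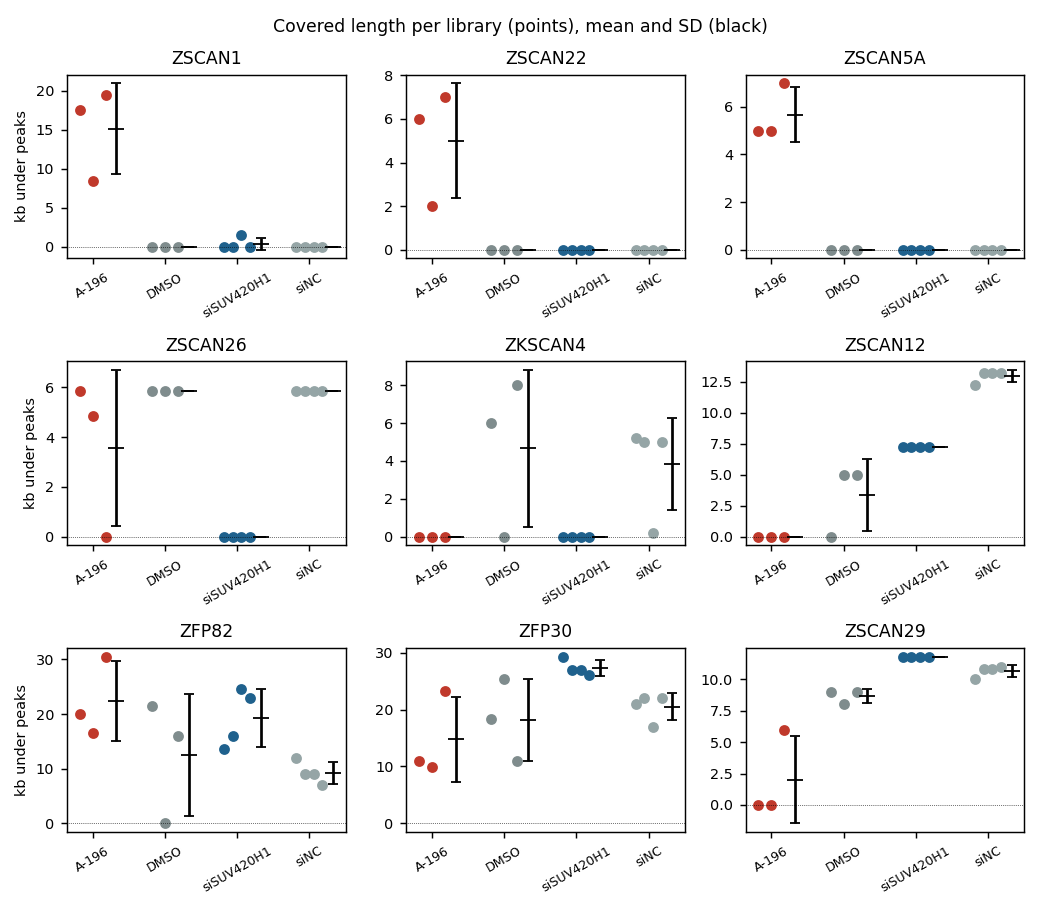
Covered length in kb per library (points), with mean and SD in black, for 9 genes in A-196, DMSO, siSUV420H1 and siNC libraries; dotted lines mark 0 kb. ZSCAN1, ZSCAN22 and ZSCAN5A were covered in the 3 A-196 libraries; ZSCAN26 and ZKSCAN4 were at 0 kb in the 4 siSUV420H1 libraries; ZSCAN29 ranged from 0 to 6 kb with A-196.

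Members that lie together were summed by locus. The cluster from ZSCAN16 to SCAND3 on chromosome 6 (28124609 to 28616202) holds 10 members among 14 coding genes. Peaks over its members summed to 8.24 kb ± 3.51 with A-196 and 24.4 kb ± 4.12 with DMSO (SD, n = 3). In the siRNA arm the sum was 17.4 kb in each siSUV420H1 library and 32.2 kb ± 2.43 with siNC (SD, n = 4). Without scaling, the sums were lower in every treated library than in every control library of its arm. They rested on ZKSCAN4, ZSCAN26, ZSCAN31 and ZSCAN12, the only members of the cluster with a peak. The 8 members from ZSCAN5B to ZSCAN22 on chromosome 19 (56189686 to 58342332, 68 coding genes) summed to 103 kb ± 11.6 with A-196 and 67.5 kb ± 2.26 with DMSO. There siSUV420H1 libraries had 57.4 kb ± 4.62 and siNC libraries 55.3 kb ± 6.77. ZFP14, ZFP82 and ZFP30, also on chromosome 19 (36334453 to 37656261), had 54.1 kb ± 23 with A-196 and 43.9 kb ± 8 with DMSO, and 67.9 kb ± 3.62 with siSUV420H1 and 42.5 kb ± 6.61 with siNC. The 4 members on chromosome 7 (99504662 to 100065040) had 29.1 kb ± 10.4 with A-196 and 20.8 kb ± 2.65 with DMSO, and 13.5 kb ± 0.5 with siSUV420H1 and 17.5 kb ± 4.03 with siNC. Scaled to equal covered length, the chromosome 6 cluster still had a lower mean with A-196 (10.8 kb ± 6.3, against 19.7 kb ± 3.75 with DMSO). The A-196 and DMSO libraries then overlapped. Its scaled mean was also lower with siSUV420H1 (21.4 kb ± 0.816, against 26.2 kb ± 2.53 with siNC). On chromosome 7 the direction in the siRNA arm turned with scaling (16.6 kb ± 1.15 with siSUV420H1, against 14.2 kb ± 2.99 with siNC). The loci were formed with the members' values known, so these sums are described and not tested.

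**Figure D5:**
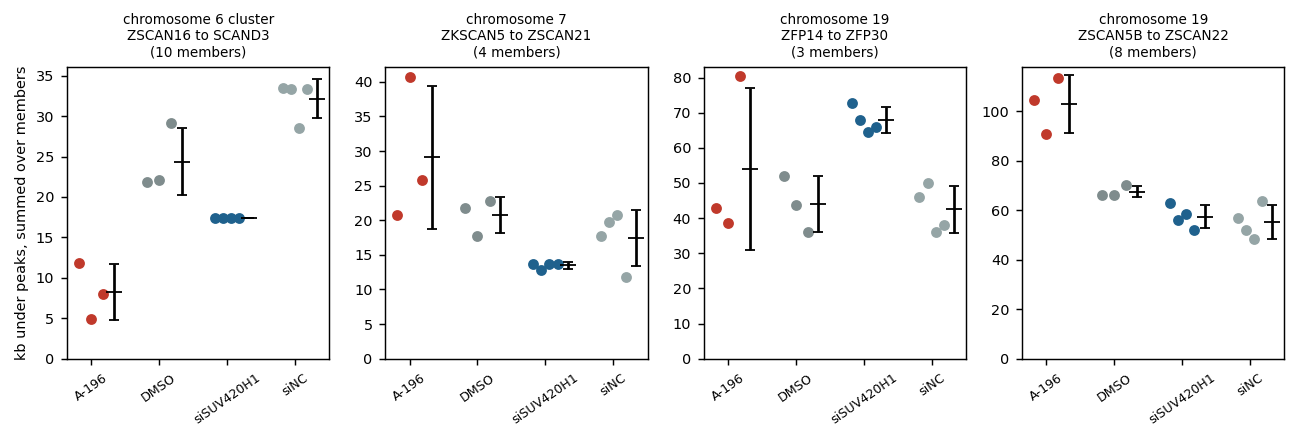
Covered length in kb summed over the members of 4 loci, per library (points), with mean and SD in black. Values are without scaling. In the chromosome 6 cluster every A-196 library lay below every DMSO library and every siSUV420H1 library below every siNC library. In the chromosome 19 locus from ZSCAN5B to ZSCAN22 the 3 A-196 libraries lay above the rest.

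Over all 47 genes, peaks covered 337.8 kb ± 73.1 with A-196 and 362.7 kb ± 15.7 with DMSO (SD, n = 3), and 475.4 kb ± 11.9 with siSUV420H1 and 448.9 kb ± 9.2 with siNC (SD, n = 4). The 17 ZFP genes held 183.5 kb ± 60.6 with A-196 and 210.8 kb ± 8.83 with DMSO, and 305.4 kb ± 6.53 with siSUV420H1 and 273.6 kb ± 3.84 with siNC. The 21 ZSCAN genes held 142.3 kb ± 14.6 with A-196 and 136.5 kb ± 14.5 with DMSO, and 137.6 kb ± 4.44 with siSUV420H1 and 143.6 kb ± 4.04 with siNC. The 7 ZKSCAN genes held 12 kb ± 2.31 with A-196 and 15.4 kb ± 4.16 with DMSO, and 32.3 kb ± 2.22 with siSUV420H1 and 31.6 kb ± 2.63 with siNC. The ZFP sums of siSUV420H1 and siNC libraries did not overlap. Scaling raised the siSUV420H1 sums and lowered the siNC sums, so it could only widen this difference (375 kb ± 17.3, against 223 kb ± 8.2 with siNC). Scaling turned the direction of the other sums that were lower in a treated group. For ZSCAN genes it gave 169 kb ± 11.1 with siSUV420H1, against 117 kb ± 4.93 with siNC, for ZFP genes 226 kb ± 61.5 with A-196, against 170 kb ± 2.2 with DMSO, and for ZKSCAN genes 14.9 kb ± 2.65 with A-196, against 12.4 kb ± 3.39 with DMSO. Over all 47 genes the scaled sums were 418 kb ± 72.8 with A-196, against 292 kb ± 15.5 with DMSO.

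The promoters of 7 members or more were under peaks in every library, with ZFP37, ZFP3 and ZSCAN18 always among them. Counting those with at least 150 of the 300 bases covered, 7 to 13 of 39 promoters were covered in an A-196 library and 10 to 11 in a DMSO library, and 11 to 13 in a siSUV420H1 library and 10 to 11 in a siNC library. These are 17.9 to 33.3% of the members, beside 2.37 to 4.56% of 15843 coding promoters in the same libraries. The promoter of ZKSCAN7 was covered in all 8 libraries of the siRNA arm and in no library of the inhibitor arm, and that of ZSCAN4 in all 6 libraries of the inhibitor arm and in none of the siRNA arm. ZSCAN32 had its promoter covered in 4 of 4 siSUV420H1 libraries and 1 of 4 siNC libraries, and ZFP82 in 2 of 4 and 0 of 4. ZSCAN30 had it covered in 0 of 3 A-196 libraries and 3 of 3 DMSO libraries. The 16 promoters covered in any library had a median of 29.5 CG pairs, against 24 in the 23 covered in none.

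Genes of the same pathway were set beside the members as counts. Of 22 SCAN domain genes with other symbols, most are named ZNF and are also counted among the ZNF genes. With A-196, 12 were tested, with 2 higher and 0 lower (16.7% and 0%, beside 4.44% and 14% of all genes tested). In the siRNA arm 10 were tested, with 2 higher and 0 lower (20% and 0%, beside 15.4% and 41.5% of all genes tested). A list of 28 genes held the KAP1 and heterochromatin machinery, through which KRAB zinc finger proteins act. With A-196, 3 were tested and none was called, beside 18.4% of all genes tested. Of 4 tested with siSUV420H1, 1 was called higher (25%, beside 15.4%). With so few genes tested, nothing is read from the shares of these lists. Of the ZNF genes, 344 were tested with A-196, with 11 higher and 7 lower (3.2% and 2.03%, beside 4.44% and 14%). Their median difference on the log2(kb + 1) scale was 0 with A-196 and 0.13 with siSUV420H1.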

How the data were processed

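CUT&RUN for H4K20me3 was used in 14 of 24 labelled samples, and the other 10 (IgG, H3K4me3 and H3K27me3) were not analysed here. The deposited lists give broad peaks as positions in base pairs, with no score or read count. Per the labels, duplicates were removed and peaks were called per library against 1 IgG library. Per the submitters' processing notes the authors used hg38, cutadapt 4.4, Bowtie, Picard 2.27.3 and bedtools 2.30.0. The peak caller is not given in the sources used here. Peak ends all lay on a 1000 bp grid and peaks were at least 5 kb wide, so smaller differences are not visible.

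Gene spans (1-based, GRCh38) and promoters came from RefSeq tables; 8 members had no promoter entry and thus no strand. For each of 19866 coding genes the kb under peaks of the span plus 2 kb on both sides was computed per library (Python 3.11.15, pandas 2.3.3). Values log2(kb + 1) were fitted with limma 3.58.1 (R 4.3.3, mean-variance trend) for genes with a mean of at least 1 kb over the libraries of an arm. Adjustment was by Benjamini-Hochberg over all genes tested, with a threshold of 0.05. The fit was also run on simulated data with random noise. Those data do not represent groups of identical values, so nothing is read from them about such calls. Loss meant a mark in all control libraries and in no treated one, and gain the reverse. Replicate numbers did not pair the libraries. Alternatives covered pseudocount, scaling, filter, flanks, peak width, trend, replicate block, exact test and single libraries left out.

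The members, lists and loci were chosen with earlier results of these data known. Genes named are members called, lost or gained, those with the longest coverage in the controls, and those whose groups did not overlap. Genes given outside that rule (ZSCAN20, ZFP57, ZFP28, members of a locus and those without a peak) were chosen after their values were seen.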

Additional observations from a re-analysis of the deposited data

Results flagged for a closer look

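ZKSCAN4 in siNC replicate 3 had 0.211 kb under peaks, where the other siNC libraries had 5 to 5.21 kb, so this library lay far from the rest of its group. ZSCAN1 in siSUV420H1 replicate 3 had 1.5 kb, where the other siSUV420H1 libraries had 0 kb. Groups of 4 libraries were compared for 94 pairs of gene and group, and 23 had a range over 1 kb. Among the 23, these 2 stood out. For continuous values chance marks about 1 group in 20. Covered lengths hold ties and move in steps of 1000 bp, so that rate may not apply here.

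The difference between the effects of A-196 and siSUV420H1 passed the test in 5 members (limma interaction, adjusted p as given in the report). The A-196 effect minus the siSUV420H1 effect on the log2(kb + 1) scale was 3.61 for ZSCAN1, 2.47 for ZSCAN22, 2.72 for ZSCAN5A, -2.47 for ZSCAN29 and -0.41 for ZSCAN32. For the first 3 the controls of both arms were at 0 kb, so these values depend on the pseudocount. Those 3 genes reached the mean of 1 kb through the A-196 libraries, so nothing is read from the size of their adjusted p. The call of ZSCAN29 was the same in 7 of 20 alternative settings.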

How the results depend on the processing

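With A-196 against DMSO, the 3 calls became 1 (1 lower, 0 higher) among peaks of at least 10 kb and 8 (5 lower, 3 higher) by the exact permutation test at its smallest p, and ranged from 2 to 4 with single libraries left out. Lost members numbered 1 among peaks of at least 10 kb (ZSCAN31) and 0 to 2 with single libraries left out; gained members numbered 0 among peaks of at least 10 kb and 3 to 4 with single libraries left out. With siSUV420H1 against siNC, the 16 calls became 28 after scaling (4 lower, 24 higher), 8 among peaks of at least 10 kb (0 lower, 8 higher), 10 by the exact permutation test (3 lower, 7 higher) and 9 to 12 with single libraries left out. Lost members numbered 1 with at least 1000 bp, 1 with the span alone, 0 among peaks of at least 10 kb and 2 to 3 with single libraries left out; gained members stayed at 0 in each of these settings. The difference between the arms gave 4 to 15 calls with single libraries left out, and 15 (12 lower, 3 higher) without A-196 replicate 3. No single-gene difference called by limma changed sign in these settings, while the medians and sums that turned with scaling are given with their values above. The cause was not tested, beyond that peaks of at least 10 kb and fewer libraries leave less to test.

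Same-numbered libraries did not deviate together (correlations from -0.033 to 0.041), so the numbers are no pairing. With the replicate block the calls were 2 with A-196, 8 with siSUV420H1 (2 lower, 6 higher) and 4 for the difference between the arms. Among peaks of at least 10 kb the calls that ended were ZSCAN1 (adjusted p = 0.169) and ZSCAN22 (0.205) with A-196, ZSCAN26 (0.179), ZSCAN12 (0.558), ZKSCAN7 (0.0542), ZSCAN30 (0.157), ZFP62 (0.0517) and ZSCAN4 (0.0515) with siSUV420H1, and ZSCAN1 (0.15) and ZSCAN32 (0.0939) for the difference between the arms, by limma with Benjamini-Hochberg adjustment. Chosen after seeing the data, a minimum of 1 kb between group means left 14 calls with siSUV420H1 and 3 with A-196. Depth is unknown and limits every absence of a peak.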

Other observations

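Within the span, coverage was split at the midpoint into a 5' and a 3' part along the annotated strand, which is known for 39 of the 47. The 3' part was covered more than the 5' part in 16 members and less in 6 with A-196, against 12 and 5 with DMSO. With siSUV420H1 the counts were 13 and 6, against 14 and 7 with siNC. Among all coding genes with coverage and a strand, the 3' part was covered more in 47.8% with A-196 and 38.4% with DMSO, and in 43.8% with siSUV420H1 and 42.2% with siNC. These counts are a description and were not tested. In ZSCAN20 the 5' part was at 0% in all groups, and the 3' part was covered at 50% with siSUV420H1 and 60.3% with siNC. ZFP62 showed the opposite, with a 5' part covered at 27.1% with A-196, 56.2% with DMSO, 68.3% with siSUV420H1 and 62.5% with siNC, and a 3' part at 0%.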
